A study of Homo sapiens with 10 samples.

Results

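The ABC transporter genes are the genes whose symbol begins with ABC, a subfamily letter from A to G and a number. The deposited table held 29 of them among 12540 genes, and all 29 had enough counts to be tested. Another 16 human ABC genes with such symbols, among them ABCB1 (P-glycoprotein) and the cholesterol exporter ABCG1, were not analysed here. The 29 were measured by RNA sequencing in SRA01-04, a line of lens epithelium from human donors that viral large T antigen made immortal. EV1 to EV5 were transfected with empty plasmid and OE1 to OE5 with a plasmid for RORα, a nuclear receptor whose gene is RORA. All 10 libraries came from cells given 10 µM selenite, a thiol-oxidising selenium salt that causes cataract in young rodents, for 24 h from 48 h after transfection. No group lacked selenite or transfection, the labels name neither the RORα isoform nor the promoter of the plasmid, and separate cultures are not stated for the replicates. The p-values therefore measure only the spread between these samples.

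ABC proteins bind and hydrolyse ATP on paired nucleotide-binding domains. Most couple this to moving a substrate across a membrane. Lipids are moved by the A and most of the G subfamily, and drugs and conjugates by most of the C subfamily, ABCB1 and ABCG2. Acyl-CoA, peptides or metal-related compounds are moved by many of the B and D subfamilies. The E and F subfamilies have no membrane domain and work on ribosomes. In the lens, which has no blood supply and keeps its fibre membranes rich in cholesterol, exporters of glutathione conjugates and of sterols are of interest for redox and lipid balance.

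RORA, the overexpressed gene (ENSG00000069667, chromosome 15), stood at 16.4, 14.8, 17.04, 11.2 and 15.5 CPM (counts scaled to library totals after TMM normalization) in EV1 to EV5 and at 41.7, 42.5, 39.4, 44.0 and 38.6 CPM in OE1 to OE5. The groups did not overlap (2.74-fold higher, edgeR adjusted p = 4.35e-20, and p = 0.0079 in an exact two-sided permutation test, the smallest that 5 against 5 libraries allow). The libraries held 17475342 to 21956761 counts each. The limit that a count of 0 allows, 3 counts, lay at 0.137 to 0.172 CPM (counting error only). EV4, OE3 and OE5 stood apart from the other libraries on the first component of the residuals, which held 26% of the variance within groups and crossed both groups. Of 17 lens markers, 5 were in the table, PAX6 and BFSP1 among them, while the crystallin CRYAA and the lens regulator FOXE3 were not. CRYAB and BFSP1 fell and the other 3 did not pass. Summed over those 5, the level was 81.5 to 89.0 CPM with the empty vector and 79.0 to 89.4 CPM with RORα. Most of that sum came from GJA1, a gap junction gene, at 53.2 and 55.8 CPM. The sum therefore says little of CRYAB (1.43 and 0.370 CPM) or BFSP1 (7.51 and 4.80 CPM). Of 10 fibroblast markers, 8 were in the table and all 8 fell, their summed level going from between 3098 and 3332 CPM to between 1032 and 1156 CPM. Of 8 immune and 5 endothelial markers, 2 and 1 were in the table, and the absence of the others says nothing of their expression. The summed level of the 2 immune markers was 4.09 to 5.70 CPM with the empty vector and 2.16 to 3.12 CPM with RORα. For the endothelial marker, PECAM1, the level was 5.30 to 6.90 CPM and 2.87 to 3.25 CPM. In bulk RNA, fewer cells of a type and less RNA per cell cannot be told apart, and the part of these markers in the results below was not tested.

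The ABC genes moved in both directions, and more of them stayed within the test's threshold than passed it. Of the 29 members, 6 rose, 6 fell and 17 did not pass a Benjamini-Hochberg adjusted p of 0.05 in edgeR's quasi-likelihood test of all genes. That is 41.4% of members, against 56.1% of all genes tested (28.6% higher and 27.5% lower). The median level of the members with the empty vector, 34.9 CPM, was near that of all genes, 32.5 CPM. Their median size of change in either direction was 0.17 on the log2 scale, against 0.18 for all genes, and their median signed change was 0.02 against 0.00. At 1.5-fold or more, 5 members passed (ABCC9, ABCA3 and ABCC3 upward, ABCB6 and ABCA1 downward), while 12.3% of all genes did. In 8 members the groups did not overlap, 5 upward and 3 downward, where 39.6% of all genes were so separated (20.8% upward and 18.9% downward). By subfamily, of 7 ABCC genes 5 rose and none fell, of 8 ABCA genes 1 rose and 2 fell, of 5 ABCB genes 2 fell, of 4 ABCE and ABCF genes 2 fell, and none of 3 ABCD or 2 ABCG genes passed. Transporters with both membrane domains and both ATP-binding domains on the same chain held all 6 rises and 2 of the falls among 15 members. Of the 10 that must pair with another chain, none rose and 2 fell. These differences between subfamilies and between architectures were not tested.

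**Figure D1:**
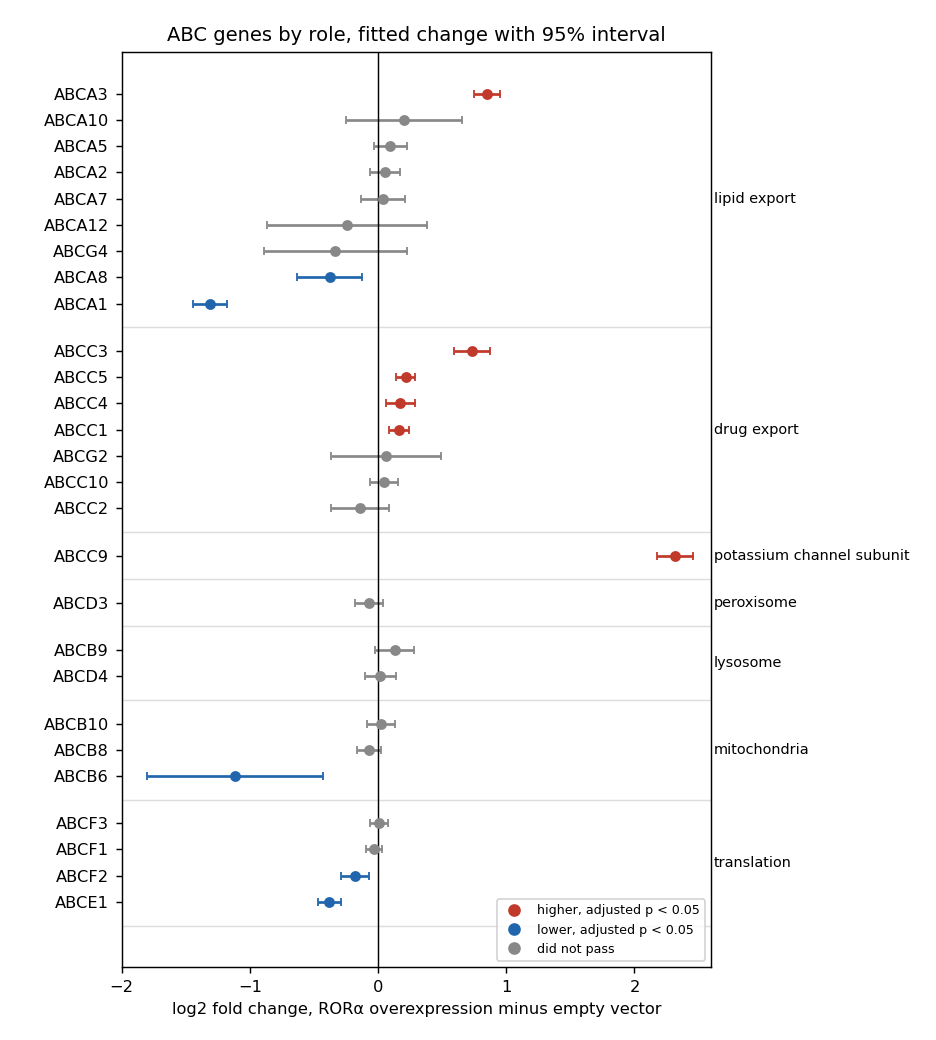
Fitted log2 fold change of 27 of the 29 ABC genes (x axis, RORα overexpression minus empty vector) with its 95% interval, grouped by role. ABCC9 lies farthest to the right at 2.32 and ABCA1 farthest to the left at -1.31, and most other points sit within 0.4 of 0.

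ABCC9 rose more than any other ABC gene. It encodes SUR2 (ENSG00000069431, chromosome 12, 21797401 to 21942529, minus strand, GRCh38), the sulfonylurea receptor subunit of ATP-sensitive potassium channels in heart and smooth muscle, which gates a potassium pore and is not known as an exporter. It stood at 7.22, 8.22, 9.33, 7.77 and 8.33 CPM in EV1 to EV5 and at 42.6, 43.0, 40.2, 40.5 and 37.6 CPM in OE1 to OE5. Every RORα library was thus more than 4 times the highest empty vector library. In raw reads these are 787 counts over the empty vector libraries and 4036 over the RORα libraries. This was a rise of 2.32 on the log2 scale (standard error 0.071), or 4.98-fold with a 95% interval of 4.51 to 5.50 (edgeR adjusted p = 3.29e-27), and its place by size of rise among 12520 genes was 52. Neither KCNJ8, the pore gene next to it on chromosome 12, nor KCNJ11 was in the table, so the pores were not analysed here. The nearest tested genes on either side did not pass: LDHB, a lactate dehydrogenase chain, stood at 2.08 and 1.86 CPM (fitted log2 change -0.15, edgeR adjusted p = 0.588) and CMAS, a sialic acid enzyme, at 81.1 and 78.9 CPM (-0.04, edgeR adjusted p = 0.453).

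**Figure D2:**
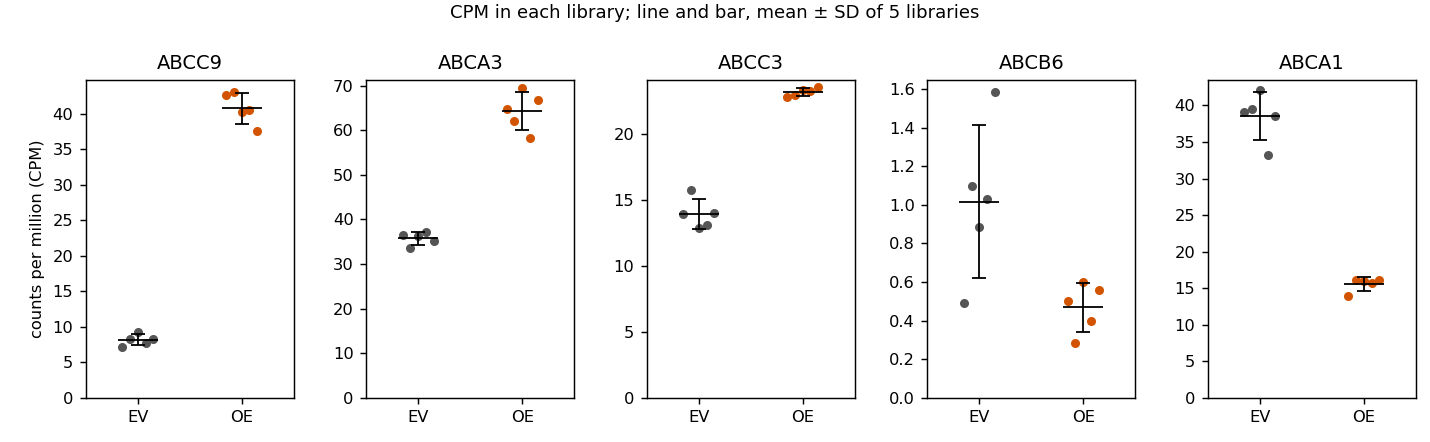
CPM (y axes, from 0) in each of the 5 empty vector (EV) and 5 RORα (OE) libraries for the members that passed at 1.5-fold or more, with mean ± SD. The groups are apart for ABCC9, ABCA3, ABCC3 and ABCA1, while for ABCB6 the lowest empty vector library, at 0.489 CPM, lies among the RORα libraries.

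The lipid exporters held both a large fall and a large rise. Among 9 measured, 1 rose, 2 fell and 6 missed the threshold, at a median log2 fold change of 0.04. The share that passed was 33.3%, against 56.1% of all genes. ABCA1 (ENSG00000165029, chromosome 9, 104781002 to 104928237, minus strand), which loads cholesterol and phospholipid onto apolipoprotein A-I and is lost in Tangier disease, stood at 39.2, 39.6, 42.1, 33.2 and 38.6 CPM in EV1 to EV5. In OE1 to OE5 it stood at 14.0, 16.1, 15.97, 15.7 and 16.1 CPM, so that the highest of these lay below the lowest empty vector library, EV4. It was 2.48-fold lower (log2 fold change -1.31, standard error 0.066, edgeR adjusted p = 5.52e-20). ABCA3 (ENSG00000167972, chromosome 16, 2275881 to 2340746, minus strand), which loads phospholipid into the lamellar bodies of lung surfactant cells, went the other way. Its levels were 36.6, 33.7, 36.2, 37.2 and 35.1 CPM in EV1 to EV5 and 64.9, 62.0, 69.6, 58.3 and 66.9 CPM in OE1 to OE5. The groups were well apart, with a 1.80-fold rise (log2 fold change 0.85, standard error 0.051, edgeR adjusted p = 1.25e-17). Per kilobase of exon, ABCA3 and ABCA1 stood at 4.58 ± 0.175 and 3.39 ± 0.288 CPM per kb with the empty vector, and at 8.24 ± 0.558 and 1.37 ± 0.0803 CPM per kb with RORα (SD, n = 5 per group).

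ABCA8, a member of the ABCA cluster on chromosome 17, stood between 6.44 and 11.1 CPM with the empty vector and between 5.28 and 7.00 CPM with RORα. It was 1.30-fold lower with overlapping groups (edgeR adjusted p = 0.0105). Without EV3, its highest library, the log2 fold change went from -0.38 to -0.26 and no longer passed (edgeR adjusted p = 0.0861). Without EV4, OE3 and OE5 it was -0.25 (edgeR adjusted p = 0.122). Its neighbours of the same cluster that were measured, ABCA10 (1.73 and 1.99 CPM) and ABCA5, an endolysosomal lipid transporter (26.8 and 28.5 CPM), had log2 fold changes of 0.20 and 0.10 and did not pass (edgeR adjusted p = 0.458 and 0.213). ABCA5 and ABCA10 share 318 exon bases, so some reads cannot be given to either.

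The other lipid exporters did not pass. ABCA2, an endolysosomal lipid transporter, stood at 42.7 ± 3.47 and 44.4 ± 3.46 CPM (SD, n = 5 per group), and the 95% interval of its fold change was 0.959 to 1.13. ABCA7, a phospholipid exporter and Alzheimer disease risk gene, stood at 13.4 ± 1.37 and 13.8 ± 1.41 CPM, with an interval of 0.911 to 1.16. These intervals leave room for changes of about the size seen in the smaller calls, but not for that of ABCA1 or ABCA3. ABCA12, which loads lipid into keratinocyte granules, and ABCG4, the closest relative of ABCG1, were near the lower end of what was measured, with 87 and 76 counts and with 101 and 82 counts in the 2 groups. Their intervals, 0.548 to 1.30 and 0.538 to 1.17, were correspondingly wide.

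The start-site sequences of ABCC9 and ABCA1, which had the largest rise and the largest fall, are shown to compare what lies there, with that of ABCE1, the fall with the smallest adjusted p among the ribosome-binding members. Each runs 5′ to 3′ on the gene's strand from 250 bases before to 50 after the RefSeq start (GRCh38.p14). Both strands were searched for AGGTCA (the core element that ROR and other nuclear receptors bind), for GGTNA followed by any 5 bases and GGTNA again (a loosened direct repeat in the layout of LXR sites), CACGTG (the E-box), TGACGTCA (the cAMP response element), TATAAA and GGGCGG (the GC box). Capitals mark matches to these other than GGGCGG. The motifs were chosen with the ABCA1 promoter known to carry an LXR element and an E-box.
ABCC9, chr12:21941377-21941676, minus strand: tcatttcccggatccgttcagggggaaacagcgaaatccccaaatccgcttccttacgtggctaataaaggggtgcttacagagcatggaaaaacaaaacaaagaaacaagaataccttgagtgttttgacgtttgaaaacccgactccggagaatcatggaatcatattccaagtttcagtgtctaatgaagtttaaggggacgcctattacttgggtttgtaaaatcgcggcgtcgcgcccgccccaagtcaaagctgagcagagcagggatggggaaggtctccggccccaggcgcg
ABCA1, chr9:104928106-104928405, minus strand: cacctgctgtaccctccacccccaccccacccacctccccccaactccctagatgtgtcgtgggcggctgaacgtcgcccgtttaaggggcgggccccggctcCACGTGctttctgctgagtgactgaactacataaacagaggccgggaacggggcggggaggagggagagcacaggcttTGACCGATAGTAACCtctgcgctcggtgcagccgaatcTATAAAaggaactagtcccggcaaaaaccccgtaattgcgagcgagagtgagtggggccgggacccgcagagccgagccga
ABCE1, chr4:145098061-145098360, plus strand: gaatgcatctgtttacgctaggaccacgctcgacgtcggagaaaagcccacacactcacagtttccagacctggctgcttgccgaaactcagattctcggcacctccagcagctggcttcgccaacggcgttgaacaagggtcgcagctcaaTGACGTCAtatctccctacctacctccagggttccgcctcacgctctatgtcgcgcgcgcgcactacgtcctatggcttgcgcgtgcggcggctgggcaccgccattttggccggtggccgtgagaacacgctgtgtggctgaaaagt

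In the ABCA1 window the E-box lay at -147 to -142, the loosened repeat on the opposite strand at -69 to -55 and TATAAA at -31 to -26, counted from the start. The loosened repeat occurred in 0.656% of 27305 RefSeq promoter windows on the main chromosomes and in no other of the 24 member windows matched (ABCA8, ABCC1 and ABCC3 were among the 5 without an entry). The ABCE1 window held TGACGTCA at -98 to -91, found in 1.98% of all windows and in 1 of the 24. In the ABCC9 window a GC box lay at -9 to -4 and no other motif searched was found. The window of ABCA3, which also rose, was extracted too but is not shown. It held GC boxes at -69 to -64 and at 33 to 38, and no other motif searched. The RefSeq starts of ABCC9, ABCA1 and ABCE1 all lie inside the GENCODE bounds of their genes, and other start sites of these genes were not examined. AGGTCA occurred in 13.9% of all windows and in 2 member windows, those of ABCD4 and ABCF1, and CACGTG in 7.43% of all windows and in 3 member windows. TATAAA occurred in 12% of all windows and in 4 member windows, and GGGCGG in 44.6% and in 17. A match is a string of letters, not a site shown to be bound.

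Of 19 genes listed for LXR signalling and cholesterol handling, 17 were tested, of which 6 rose, 5 fell and 6 missed the threshold, at a median log2 fold change of 0.02. These shares, 35.3% higher and 29.4% lower, are near those of all genes, 28.6% and 27.5%. The largest rise was that of NPC1, which lets cholesterol out of lysosomes, from 189 ± 5.70 to 369 ± 7.52 CPM (SD, n = 5 per group; log2 fold change 0.97). Some known LXR targets stood among the falls, but not every LXR target in the list is named here. How such targets moved as a group was not tested. MYLIP, a ubiquitin ligase, went from 1.64 to 0.829 CPM (log2 fold change -0.95, edgeR adjusted p = 0.0055, groups overlapping) and LPCAT3, a phospholipid-remodelling acyltransferase, from 18.2 to 12.1 CPM (-0.59). Picked with its value in view, NR1H3, which encodes LXRα, rose from 4.59 to 6.23 CPM (log2 fold change 0.44). SREBF1, another LXR target picked in the same way, stood at 74.3 and 73.0 CPM (-0.02, edgeR adjusted p = 0.673). The nearest tested genes on either side of ABCA1 both fell. NIPSNAP3B, 3.545 kb away, went from 2.34 to 1.37 CPM (fitted log2 change -0.76, edgeR adjusted p = 0.00353). SLC44A1, a choline transporter 316 kb away, went from 135 to 106 CPM (-0.35). Beside ABCA3, which rose, RNPS1 did not pass (0.05, edgeR adjusted p = 0.235) and CCNF fell (-0.31). Whether neighbours moved together was not tested.

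Among the drug exporters, only rises passed. Among 7 measured, 4 rose, none fell and 3 missed the threshold. The share that passed, 57.1%, was near the 56.1% of all genes, of which 28.6% rose. The median log2 fold change was 0.17. ABCC3 (ENSG00000108846, chromosome 17, 50634777 to 50692252, plus strand), MRP3, an exporter of glucuronide and bile acid conjugates, stood at 14.0, 15.7, 12.9, 13.1 and 14.0 CPM in EV1 to EV5 and at 22.8, 23.0, 23.4, 23.2 and 23.6 CPM in OE1 to OE5. The RORα libraries lay close together, all above the highest empty vector library, EV2. The rise was 1.66-fold (log2 fold change 0.73, standard error 0.069, edgeR adjusted p = 9.39e-12). ABCC1 (ENSG00000103222, chromosome 16, 15949577 to 16143074, plus strand), MRP1, which exports glutathione conjugates and leukotriene C4, had the highest level per length of this class. It stood at 96.9, 106, 108, 111 and 109 CPM in EV1 to EV5 and at 119, 117, 120.2, 116 and 122 CPM in OE1 to OE5. Its groups did not overlap, yet the change was small, 1.12-fold higher (log2 fold change 0.17, edgeR adjusted p = 0.000318). ABCC5, MRP5, an exporter of cyclic nucleotides, rose 1.16-fold from 132 ± 5.82 to 153 ± 4.76 CPM without overlap (edgeR adjusted p = 3.40e-06). ABCC4, MRP4, which exports cyclic nucleotides and prostaglandins, rose 1.13-fold from 35.7 ± 2.61 to 40.2 ± 1.96 CPM with overlap (edgeR adjusted p = 0.00751).

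The 3 other drug exporters did not pass. ABCC10, MRP7, stood at 43.2 and 44.6 CPM (interval of the fold change 0.959 to 1.11) and ABCC2, the apical conjugate exporter MRP2, at 6.55 and 5.96 CPM (0.775 to 1.06). ABCG2, the breast cancer resistance protein, was low, with 198 and 212 counts over 5 libraries each and an interval of 0.773 to 1.40. Summed per kilobase of exon, the 7 drug exporters stood between 35.5 and 39.0 CPM per kb in the empty vector libraries and between 42.1 and 43.6 in the RORα libraries, so the summed level did not overlap. Most of that sum came from ABCC1 and ABCC5, at 14.0 and 11.5 CPM per kb with the empty vector, so it mainly repeats their rises.

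Of 19 listed genes that regulate drug exporters or bring their substrates in, 11 were tested, of which 4 rose, 2 fell and 5 did not pass. The 54.5% that passed is near the 56.1% of all genes. SLCO2A1, the prostaglandin uptake carrier, fell from 21.1 ± 2.67 to 9.27 ± 0.988 CPM (a 2.28-fold fall, edgeR adjusted p = 1.01e-14). AHR, a ligand-activated regulator of detoxification genes, rose from 36.7 to 55.3 CPM (log2 fold change 0.59). RDX, radixin, which anchors apical exporters in liver, fell by 0.25 on the log2 scale, and SLCO3A1, an organic anion carrier, rose by 0.23. The nearest tested genes beside ABCC3 were CACNA1G, a calcium channel, which fell from 9.44 to 6.86 CPM (log2 fold change -0.46), and ANKRD40, at 147 and 154 CPM, which did not pass (edgeR adjusted p = 0.11).

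**Figure D3:**
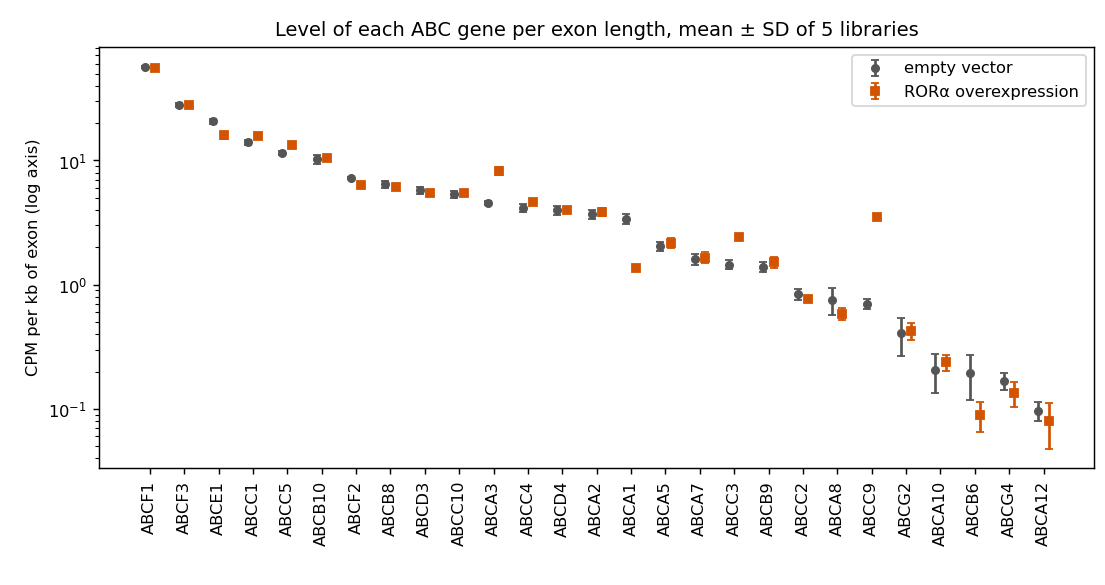
Level of 27 of the 29 ABC genes as CPM per kilobase of annotated exon (y axis, log scale), mean ± SD of 5 libraries per group, ordered by the empty vector level. ABCF1 is highest in both groups. ABCC9 (place 24 to 17 of all 29), ABCA3 (13 to 8) and ABCA1 (17 to 22) change place the most.

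Per length of annotated exon, 3 of the 4 ribosome-binding members had the highest levels of the 29 members. The other, ABCF2, was in place 8 with the empty vector. With the empty vector ABCF1 stood at 56.5 ± 1.16, ABCF3 at 27.9 ± 1.03, ABCE1 at 20.7 ± 1.06 and the first transporter in the order, ABCC1, at 14.0 ± 0.720 CPM per kb (SD, n = 5). The steps between these 4 exceed the spread of the libraries, and the order of the 7 highest genes was the same with RORα. There ABCE1 at 15.9 ± 1.08 and ABCC1 at 15.7 ± 0.302 CPM per kb no longer differed beyond that spread. The spread holds no error from the exon length used or from reads lost to overlapping genes. The order between genes is therefore approximate. Lower in the order, ABCB8, ABCD3 and ABCC10 lay within 5.34 to 6.41 CPM per kb, with neighbours within their spread. ABCC9 moved from place 24 to place 17, ABCA3 from 13 to 8 and ABCA1 from 17 to 22.

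Of these 4 translation genes none rose and 2 fell, so that 50% passed, near the 56.1% of all genes, of which 27.5% fell. ABCE1 (ENSG00000164163, chromosome 4, 145097932 to 145129179, plus strand), which splits ribosomes after termination, stood at 134, 132, 136, 119 and 127.5 CPM in EV1 to EV5 and at 102, 108, 90.1, 102 and 96.7 CPM in OE1 to OE5. The groups did not overlap, and the fall was 1.30-fold (log2 fold change -0.38, standard error 0.043, edgeR adjusted p = 8.09e-10). Genes on the opposite strand, ANAPC10 and OTUD4 among them, share up to 7.49% of the exon bases of ABCE1. With no strand marking described, some reads there may be lost or shared. ABCF2, a ribosome-associated ABCF protein, fell from 30.1 ± 0.702 to 26.6 ± 0.672 CPM, also without overlap (a 1.13-fold fall, edgeR adjusted p = 0.00567). Another annotated gene on the same strand shares 45.8% of the exon bases of ABCF2, and ABCF2 has 2 named pseudogenes, so its count may miss or share reads. ABCF1 (ENSG00000204574, chromosome 6), which binds the initiation factor eIF2, stood at 259, 249, 251, 262 and 257 CPM in EV1 to EV5 and at 251, 238, 258, 251 and 253 CPM in OE1 to OE5. The groups overlapped, and the interval of its fold change, 0.937 to 1.02, was among the narrowest of the family. ABCF3, a homologue of yeast Gcn20, stood at 145 and 146 CPM, with an interval of 0.957 to 1.06.

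Partners of ABCE1 and ABCF1 on the ribosome moved mostly by small amounts. Of 20 tested, 3 rose, 6 fell and 11 missed the threshold (45% passing, against 56.1% of all genes), at a median log2 fold change of 0.01. HBS1L, the ribosome rescue GTPase, fell from 102 ± 4.30 to 68.9 ± 4.26 CPM (a 1.48-fold fall, edgeR adjusted p = 3.16e-14), and GSPT1, the release factor eRF3a, from 354 ± 3.36 to 269 ± 6.00 CPM (a 1.32-fold fall, edgeR adjusted p = 6.34e-15). Its paralog GSPT2 rose from 13.6 to 16.9 CPM (log2 fold change 0.31) and EIF2B5, the catalytic subunit of the eIF2 exchange factor, from 123 to 153 CPM (0.32). Picked with their values in view, ETF1, the release factor eRF1, fell by 0.23 on the log2 scale, and PELO, the partner of HBS1L, rose by 0.24.

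Mitochondrial members either fell or did not pass. Of 4 tested 2 fell, with a median log2 fold change of -0.14, and the 50% that passed is near the 56.1% of all genes, of which 27.5% fell. ABCB6, a porphyrin-binding transporter of mitochondria and endolysosomes (ENSG00000115657, chromosome 2, 219209766 to 219219017, minus strand), was counted 9, 22, 18, 18 and 31 times in EV1 to EV5 and 11, 6, 11, 7 and 11 times in OE1 to OE5. In CPM these are 0.489, 1.10, 0.884, 1.03 and 1.58 against 0.502, 0.282, 0.602, 0.400 and 0.558. The groups overlap through EV1, and the fitted fall of 2.17-fold has a wide interval, from 0.286 to 0.742 of the empty vector level (edgeR adjusted p = 0.00505). Another annotated gene on the same strand shares 54.7% of its exon bases, so reads there may have been left out of this count. ZFAND2B, which lies 0.115 kb from it, fell by 0.43 on the log2 scale (edgeR adjusted p = 5.60e-07), and ATG9A on the other side did not pass (-0.08, edgeR adjusted p = 0.0752).

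ABCB10 (ENSG00000135776, chromosome 1), a mitochondrial inner membrane transporter that supports heme synthesis, had the highest level per length of the mitochondrial members. It stood at 40.1, 42.4, 50.03, 41.4 and 44.1 CPM in EV1 to EV5 and at 45.8, 44.3, 42.6, 46.0 and 42.9 CPM in OE1 to OE5, with an interval of its fold change of 0.941 to 1.09. ABCB8, a subunit of the mitochondrial ATP-sensitive potassium channel, stood at 59.8 and 57.0 CPM (interval 0.893 to 1.02). Neither passed, and ABCB10 has 3 named pseudogenes that could take reads. Of 23 heme and iron-sulfur partners, 7 rose, 4 fell and 12 missed the threshold (47.8% passing, against 56.1% of all genes), at a median log2 fold change of -0.01. SLC25A37, mitoferrin-1, which brings iron into mitochondria, rose from 74.5 ± 2.70 to 125 ± 1.19 CPM (1.67-fold, edgeR adjusted p = 7.46e-20). PPOX, a late enzyme of heme synthesis, rose from 8.44 to 13.1 CPM (log2 fold change 0.64) and CIAO2B, of the cytosolic iron-sulfur targeting complex, from 21.2 to 27.9 CPM (0.40). Without EV4, OE3 and OE5 the number of falls in this list was 7 in place of 4.

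No peroxisomal or lysosomal member passed. ABCD3, the peroxisomal importer PMP70, stood at 43.6 and 41.4 CPM (interval of the fold change 0.881 to 1.03). Of 14 peroxisomal partners, 2 rose, 5 fell and 7 did not pass (50% passing, against 56.1% of all genes), none of them changed by 1.5-fold. HSD17B4, the multifunctional beta-oxidation enzyme, fell from 98.6 ± 3.23 to 79.6 ± 4.98 CPM (a 1.24-fold fall, edgeR adjusted p = 6.22e-08) and SCP2, the sterol carrier and thiolase, from 81.4 to 68.2 CPM (log2 fold change -0.25). ACSL1, an acyl-CoA synthetase, rose from 31.7 to 43.3 CPM (0.45) and ELOVL1, which elongates saturated very long chains, from 141 to 166 CPM (0.23).

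ABCD4 (ENSG00000119688, chromosome 14), which works with LMBRD1 to release vitamin B12 from lysosomes, stood at 36.3, 38.7, 33.0, 35.4 and 31.0 CPM in EV1 to EV5 and at 34.9, 34.3, 38.3, 32.9 and 36.1 CPM in OE1 to OE5. The groups overlapped almost wholly, and the interval of its fold change was 0.933 to 1.10. ABCB9, a lysosomal peptide transporter related to TAP, stood at 18.5 and 20.3 CPM (fitted log2 change 0.13, edgeR adjusted p = 0.146), with 0.18 and a pass without OE2 (edgeR adjusted p = 0.0372). Genes on the opposite strand share up to 20.7% of the exon bases of ABCB9, and no label describes a step that marks the strand. Of 8 genes of cobalamin handling, 2 rose, 5 fell and 1 did not pass, or 87.5% passing and 62.5% lower, against 56.1% and 27.5% of all genes. TCN2, the cobalamin carrier transcobalamin, rose from 10.5 ± 0.716 to 17.4 ± 1.29 CPM (1.65-fold, edgeR adjusted p = 5.41e-10) and MTR, methionine synthase, from 101 to 136 CPM (log2 fold change 0.44). MMACHC, which processes cobalamin in the cytosol, fell by 0.30 and MMUT, the mitochondrial cobalamin enzyme, by 0.23 on the log2 scale. Without OE5 the number of falls in this list was 3 in place of 5.

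Genes of the same superfamily under other symbols complete the comparison. TAP1 and TAP2, the paired subunits that pump peptides into the endoplasmic reticulum for MHC class I, rose from 74.5 ± 4.20 to 143 ± 5.57 CPM (1.92-fold, edgeR adjusted p = 3.91e-22) and from 35.7 ± 2.65 to 49.8 ± 1.79 CPM (1.39-fold, edgeR adjusted p = 4.18e-10), both without overlap. They are the only chains that must pair with another among the ABC genes measured that rose. CFTR was not analysed here.

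**Figure D4:**
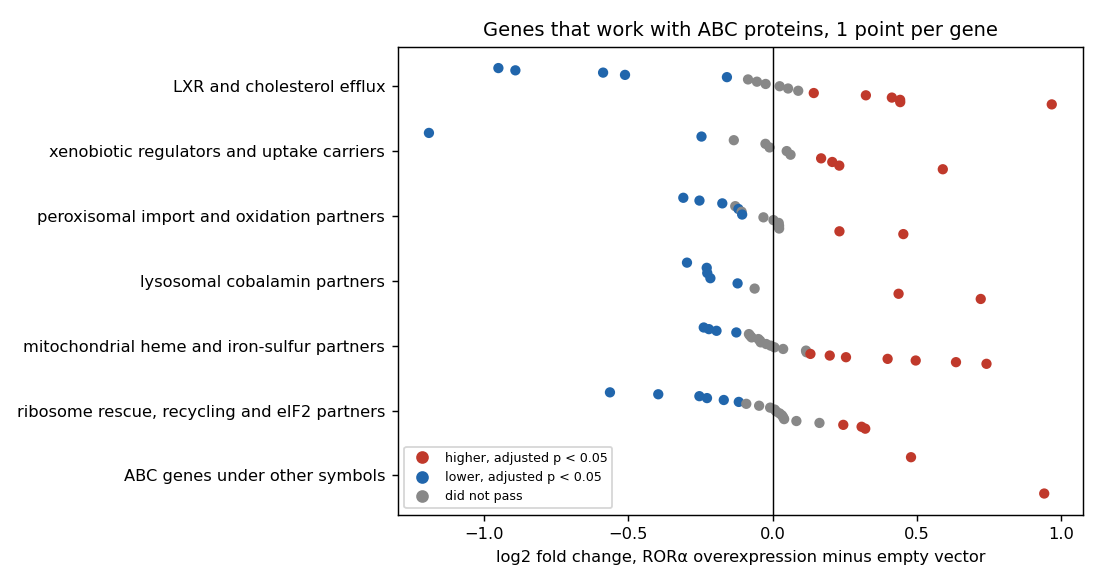
Fitted log2 fold change (x axis, RORα overexpression minus empty vector), 1 point per gene, of the genes that work with ABC proteins and of TAP1 and TAP2. Coloured points passed an adjusted p of 0.05, and each of the 6 partner lists has points on both sides of 0.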

How the data were processed

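The authors deposited a table of raw read counts and FPKM for each library, per the file headers, covering 12540 genes. The submitters' processing notes name HISAT2 2.2.1, HTSeq and GRCh38 but no annotation release. Why other genes are missing from the table is unknown, so their absence says nothing of their expression. Per the labels' protocols, RNA was selected on poly-T beads and primed at random, with no strand marking described. Counts were tested with edgeR 4.0.16 in R 4.3.3 (filterByExpr, TMM, glmQLFit, glmQLFTest, two-sided), which kept 12520 genes, with Benjamini-Hochberg adjustment over all of them and a threshold of 0.05. Standard errors are the size of the log2 fold change divided by the root of F, and 95% intervals use the same value. CPM values used TMM-scaled totals. Levels per kb used the union of GENCODE 29 exons, since the gene length behind the deposited FPKM is not stated. Limma 3.58.1 on log2(FPKM + 1) or log2(FPKM + 0.1), DESeq2 1.42.0, its size factors, no filter, a replicate block and leaving out libraries were alternatives. Members that passed at 1.5-fold, and the highest per length in each role, have every library printed, and up to 4 passing genes per partner list are named by size of change. Some genes that these rules select are counted but not reported here. The members and lists were chosen with earlier results of these data known. Residuals of libraries with the same replicate number correlated between -0.049 and 0.054, so libraries were treated as unpaired. No libraries were copies (chi-square per degree of freedom between 2.27 and 5.72 over pairs within groups). On simulated data with 200 of 12520 genes changed, the fit recovered 91% of them and 5.7% of its calls were false. The simulation drew libraries independently, changed far fewer genes than passed here, and used no change as small as those of ABCC1, ABCC4 or ABCF2. These shares therefore do not give the power or the error rate of the calls above.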

Additional observations from a re-analysis of the deposited data

Results flagged for a closer look

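Of 60 groups of 5 libraries checked (29 members and RORA), 3 held a library far from the other 4, where chance gives about 1 group in 20. ABCA1 was lowest in OE1 at 14.0 CPM, with the other RORα libraries between 15.7 and 16.1 CPM. ABCA8 was lowest in OE5 at 5.28 CPM, with the others between 6.74 and 7.00 CPM. ABCA10 was highest in OE1 at 2.51 CPM, with the others between 1.75 and 1.94 CPM.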

How the results depend on the processing

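No result reversed under any alternative run. With the replicate block, 6950 genes passed, with the same 12 members among them (6 higher, 6 lower). DESeq2 called 6981 genes, its size factors 7036 and no filter 7043, and each kept all 12 member calls. Leaving out each library in turn gave 6663 to 7019 genes. Over these, falls among lipid exporters ranged from 1 to 2 (1 without EV3, through ABCA8), rises among lysosomal and among peroxisomal members from 0 to 1 (1 each without OE2, ABCB9 for the lysosome), and falls in the cobalamin list from 3 to 6. Limma on log2(FPKM + 1) and on log2(FPKM + 0.1) each gave 1 fall among lipid exporters, since ABCA8 did not pass (log2 differences -0.07 and -0.24, limma adjusted p = 0.0768 and 0.0765), and 3 falls in the cobalamin list. A pseudocount understates the change of low genes: on log2(FPKM + 1) the difference was 0.46 for ABCC9 (2.32 in the edgeR fit), 0.28 for ABCC3 (0.73), 0.08 for ABCC4 (0.17), -0.65 for ABCA1 (-1.31), -0.05 for ABCB6 (-1.12) and 0.73 for RORA (1.46), all still past the threshold. With 0.1 it was -0.32 for ABCB6. A mean FPKM of at least 1 left 8445 genes and 15 members in the limma test. It gave 3 members higher, 2 drug exporters higher, 1 lipid exporter lower, 1 mitochondrial member lower, 0 potassium channel subunits higher, as ABCC9 was not among those tested, 3 sterol genes lower, 1 peroxisomal partner higher and 3 lower, and 1 cobalamin gene higher and 3 lower. Without EV4, OE3 and OE5, a setting chosen after seeing the data, 1 lipid exporter and 7 heme and iron-sulfur partners were lower. The cause of changes in the partner lists was not tested. Depth limits ABCB6, ABCA12, ABCG4, ABCA10 and ABCG2, each at under 250 counts over the 5 libraries of a group.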
